A study of Arabidopsis thaliana with 33 samples.

Results

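Hypocotyl explants of the hy5-2 mutant of Arabidopsis thaliana were followed from callus induction medium (CIM) to shoot induction medium (SIM) in high light. The 3 libraries taken after 4 days on SIM were set against the 3 libraries taken after 4 days on CIM, which makes 6 of the 33 libraries in the series, and a positive value means a higher level on SIM. The explants were excised from 7-day-old seedlings raised at 22 °C in continuous light of 2 µmol/m2/s. Culture on CIM lasted 4 days, with 0.5 mg/L 2,4-D (a synthetic auxin) and 0.1 mg/L kinetin (a cytokinin). The second group then spent 4 further days on SIM, with natural auxin (indole-3-acetic acid) at 0.15 mg/L and 0.5 mg/L 2-isopentenyladenine (a cytokinin). Both media held 2% glucose, and the light during culture was 40 µmol/m2/s. Beside these libraries stand Col-0 wild type at the same 2 stages in the same light and hy5-2 after 8 days on SIM, with 3 libraries in each group. Some levels are also given for 3 hy5-2 libraries taken before culture (T0), in light of 2 µmol/m2/s. That group differs from the cultured groups in light as well as in culture. Medium and time in culture moved together, since no group stayed on CIM beyond 4 days, so the effects of the new medium and of 4 more days cannot be told apart. The mutant was cultured in high light only, and it is represented by a single allele. RNA was taken from whole explants, so fewer cells of a type and less RNA per cell cannot be told apart in any result given here.

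HY5 is a bZIP transcription factor that accumulates in light, is degraded in darkness through the COP1 ubiquitin ligase, and binds G-box elements in promoters of flavonoid, photosynthesis and other light-induced genes. Callus formed on auxin-rich medium resembles the tip of a lateral root primordium and expresses root stem cell genes of the PLETHORA, WOX and LBD families. On cytokinin-rich medium, type-B response regulators activate targets that include the shoot organizer gene WUS, and boundary genes such as CUC1 and CUC2 mark the places where shoot meristems form. Cells of the same explant can instead mature into vessels, endodermis, root hairs or green tissue, which is why markers of these tissues are described alongside the shoot genes.

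The 6 libraries held 9606331 to 15123263 counted reads, within the range of 7235763 to 21184356 over all 33. Levels are given as CPM, counts relative to the library total after TMM scaling, for replicates 1, 2 and 3 in that order. Changes are log2 fold changes ± SE from a negative binomial model with 3 libraries in each group, and a gene is said to have risen or fallen where its adjusted p was under 0.05. HY5 itself (AT5G11260, chromosome 5, 3593380 to 3594992, TAIR10) stood at 3.51, 3.53 and 3.5 CPM on CIM and at 3.21, 3.53 and 3.75 CPM on SIM in the mutant. In Col-0 its levels were 33.9, 27.8 and 30.7 CPM on CIM and 47.5, 38.5 and 46 CPM on SIM, so every mutant library was below every wild-type library. HYH (AT3G17609, chromosome 3, 6023866 to 6024698), the close homologue of HY5, had 0.731, 0.707 and 0.318 CPM on CIM and 1.1, 0.981 and 0.709 CPM on SIM in hy5-2, against 13.6, 13.3 and 11.5 CPM on CIM and 29.1, 24.6 and 32.1 CPM on SIM in Col-0. Neither gene passed the test between the media in the mutant (HY5 -0.01 ± 0.24, adjusted p = 0.973, and HYH 0.70 ± 0.47, adjusted p = 0.214). The callus label was borne out by the root primordium genes: WOX5, PLT2, LBD16 and PUCHI were at most 9.83 CPM in each of the 3 hy5-2 libraries taken before culture (T0, light of 2 µmol/m2/s), and at least 28.1 CPM in every CIM library.

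Upstream sequences are shown for 4 genes that carry the main results. MYB12 and ELIP1 are light-induced genes whose change differed between mutant and wild type, and each holds a G-box (CACGTG, in capitals), the element bound by HY5. ARR7 and ARR15 are cytokinin-induced response regulators that rose on SIM, and their capitals mark the type-B response regulator core AGATT or its reverse complement AATCT. Each sequence is 300 bases, 5′ to 3′ on the gene's own strand, read from the RefSeq TAIR10.1 assembly. The window ends before the outer of the start in the deposited table and the start of the gene in RefSeq, so where RefSeq places the start further out it does not adjoin the gene positions given here, which are those of the deposited table.
MYB12 (chr2:19476026-19476325, plus strand): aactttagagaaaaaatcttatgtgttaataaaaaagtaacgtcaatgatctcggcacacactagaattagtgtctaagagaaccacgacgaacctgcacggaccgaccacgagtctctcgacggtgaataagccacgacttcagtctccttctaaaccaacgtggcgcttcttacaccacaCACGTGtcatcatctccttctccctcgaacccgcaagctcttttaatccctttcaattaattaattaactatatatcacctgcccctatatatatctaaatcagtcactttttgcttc
ELIP1 (chr3:8085670-8085969, minus strand): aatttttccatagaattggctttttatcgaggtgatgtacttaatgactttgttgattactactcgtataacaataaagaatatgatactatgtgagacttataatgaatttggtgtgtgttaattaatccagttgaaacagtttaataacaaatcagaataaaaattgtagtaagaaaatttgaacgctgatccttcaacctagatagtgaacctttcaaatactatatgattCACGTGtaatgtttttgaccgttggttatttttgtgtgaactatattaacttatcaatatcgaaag
ARR7 (chr1:6579315-6579614, minus strand): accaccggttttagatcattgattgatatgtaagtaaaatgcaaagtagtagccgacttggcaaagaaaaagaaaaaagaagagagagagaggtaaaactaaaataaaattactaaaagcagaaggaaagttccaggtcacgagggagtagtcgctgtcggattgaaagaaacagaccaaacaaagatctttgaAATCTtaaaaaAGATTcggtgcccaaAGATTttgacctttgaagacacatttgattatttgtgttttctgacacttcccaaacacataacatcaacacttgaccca
ARR15 (chr1:28133026-28133325, minus strand): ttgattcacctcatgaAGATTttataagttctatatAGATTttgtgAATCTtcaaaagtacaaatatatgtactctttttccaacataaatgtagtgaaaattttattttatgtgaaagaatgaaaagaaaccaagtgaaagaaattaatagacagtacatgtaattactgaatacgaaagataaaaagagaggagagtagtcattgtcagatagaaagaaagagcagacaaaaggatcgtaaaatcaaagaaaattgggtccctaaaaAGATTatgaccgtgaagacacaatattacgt
The G-box begins 118 bases before the start in MYB12 and 66 bases before it in ELIP1. The response regulator core occurs 3 times in ARR7 and 4 times in ARR15, without overlaps. CACGTG, which reads the same on both strands, was found in 7.1% of the 27205 protein-coding windows of this length, in 8 of 28 flavonoid and anthocyanin genes (28.6%) and in 9 of 45 nuclear photosystem and Rubisco genes (20.0%). Among protein-coding genes whose change was more negative in hy5-2 than in Col-0 it was found in 52 of 631 (8.2%), and among those with a more positive change in 72 of 878 (8.2%). These genes were all tested, and among all tested protein-coding genes the share was 7.8% (1576 of 20154). AGATT on either strand is common, with a match in 70.5% of all windows and in 7 of the 10 type-A response regulator genes (70.0%). A match describes the letters of the window and does not show that a factor binds there.

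From 4 days on CIM to 4 days on SIM, 53.1% of the genes tested changed in level: of 20842, 5317 rose (25.5%) and 5743 fell (27.6%) in hy5-2. Changes of at least 2-fold were called for 2007 rises (9.63%) and 1568 falls (7.52%), and changes of at least 4-fold for 978 rises (4.69%) and 764 falls (3.67%). Gene lists for 24 tissues and pathways held 465 loci, of which 435 were tested. The counts per list given below are to be read against the shares of all genes, 25.5% for rises and 27.6% for falls. For differences of the change between genotypes that share was 7.36% in either direction. Root primordium, epidermis and DNA replication genes fell, while cytokinin response, shoot boundary, vascular, endodermis and root hair genes rose. Photosystem genes mostly passed in neither direction. Among loci that are not protein-coding genes, 81 of the 309 tested with the annotation other RNA rose and 53 fell, of 32 miRNA loci tested 7 rose and 3 fell, and of 31 snoRNA loci none rose and 8 fell.

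**Figure D1:**
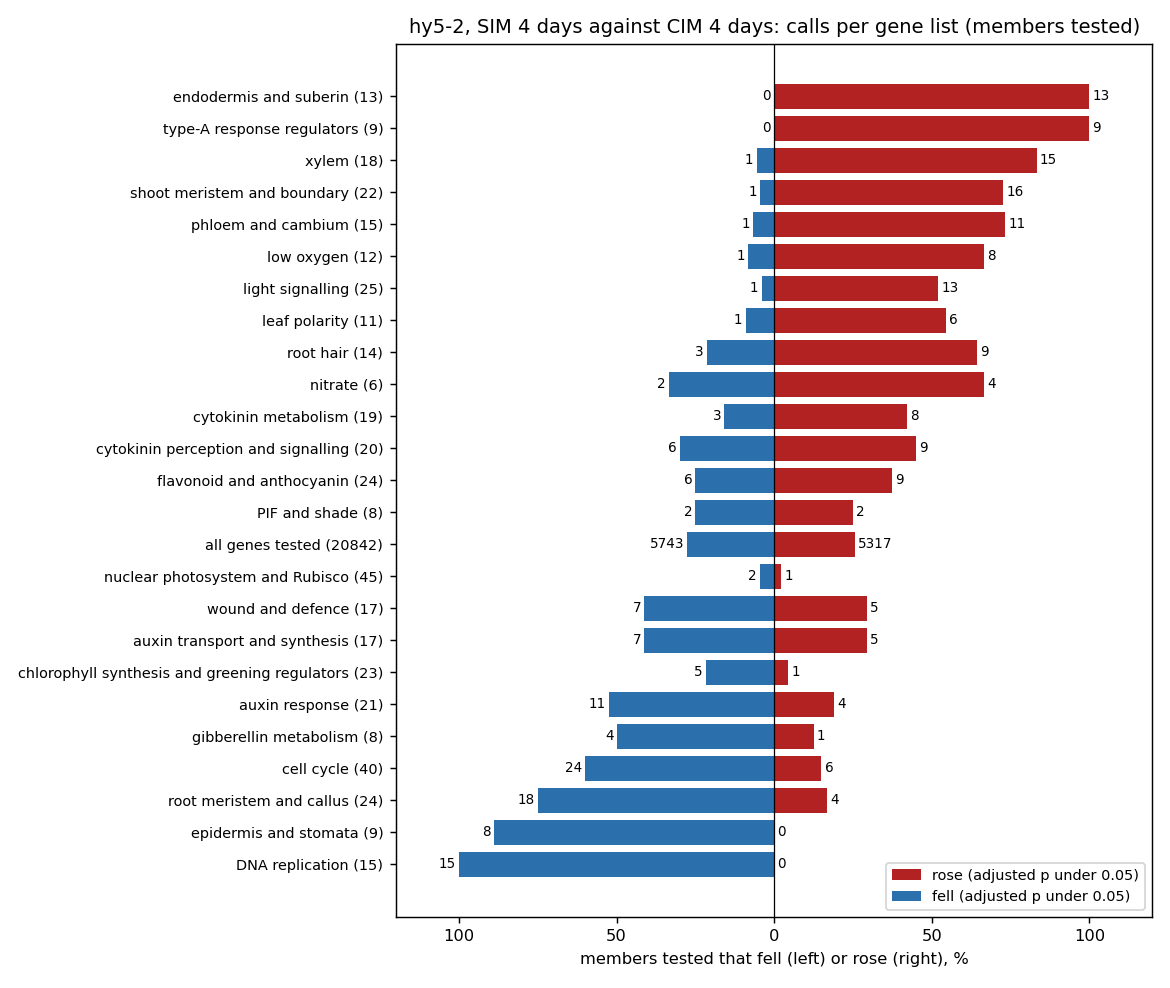
Share of the tested members of each gene list that fell (left, blue) or rose (right, red) in hy5-2 between CIM 4 days and SIM 4 days, in percent, with the number of genes at each bar and the number tested in brackets. All 13 endodermis and suberin genes and all 9 tested type-A response regulators lie on the right and all 15 DNA replication genes on the left, against 25.5% and 27.6% of all genes tested.

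Most root meristem and callus genes fell on shoot medium, some of them to near zero. The summed level of the 25 listed genes went from between 1867 and 1926 CPM on CIM to between 1342 and 1423 CPM on SIM. Before culture (T0, low light) that sum was 417 to 429 CPM. Of 25 listed genes 24 were tested, and 18 fell and 4 rose, where 27.6% of all genes fell and 25.5% rose; the median log2 fold change was -1.98, against -0.02 over all genes. PLT2 (AT1G51190, chromosome 1, 18977284 to 18980618), an AP2 factor that maintains root stem cells, stood at 28.4, 28.1 and 31.2 CPM on CIM and at 1.41, 2.55 and 3.75 CPM on SIM. It fell by 3.55 ± 0.23 (adjusted p = 1.69e-13), and the groups did not overlap. WOX5 (AT3G11260, chromosome 3, 3527575 to 3528433), the homeobox gene of the root quiescent centre, went from 45.8, 43.1 and 50.6 CPM to 0.392, 0.785 and 2.94 CPM and fell by 5.16 ± 0.26 (adjusted p = 1.45e-16). LBD16 (AT2G42430, chromosome 2, 17663444 to 17665295), an auxin-induced gene needed for callus and lateral root initiation, went from 52.2, 62.8 and 64.3 CPM to 3.53, 5.59 and 4.56 CPM, a fall of 3.73 ± 0.20 (adjusted p = 1.81e-15). All CIM libraries were far above all SIM libraries in each of these genes. PUCHI (AT5G18560, chromosome 5, 6164587 to 6165991), an ERF factor of lateral root primordia, had 40.9, 43.8 and 42.2 CPM on CIM and 0.862, 0.196 and 0.202 CPM on SIM. It fell by 6.50 ± 0.22 (adjusted p = 4.93e-21), the lowest fold change on the list.

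The rest of the root programme fell to different degrees. LBD18 fell by 3.57 ± 0.14 (adjusted p = 2.58e-20), LBD29 by 4.70 ± 0.30 (adjusted p = 3.24e-13) and BBM by 4.54 ± 0.30 (adjusted p = 8.13e-12), the last being an embryonic AP2 factor related to PLT2. SCR, which patterns the ground tissue and stem cell niche, fell by 2.97 ± 0.12 from 115, 140.1 and 141 CPM to 14.7, 19.2 and 17.1 CPM (adjusted p = 1.2e-18), and its partner SHR by 0.52 ± 0.07 (adjusted p = 1.55e-07). PLT3, an AP2 factor expressed early in lateral root founder cells, kept more of its level: it went from 443, 474 and 455 CPM to 194, 194 and 203 CPM and fell by 1.21 ± 0.07 (adjusted p = 5.16e-16). PLT7 did not pass, at 48.2, 46.5 and 47.7 CPM and 44.4, 45.7 and 47.6 CPM (adjusted p = 0.725). The 4 genes that rose were WOX11, LBD17, ARF19 and WRKY23. WOX11, a homeobox gene of root founder cells, rose by 1.39 ± 0.17 from 78.9, 63.9 and 63.7 CPM to 180.5, 197 and 163 CPM (adjusted p = 9.06e-08), and WRKY23, an auxin-responsive factor, by 0.66 ± 0.08 (adjusted p = 1.07e-08).

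Replicate 3 on SIM held more of several root genes than replicates 1 and 2. PLT1 had 4.63, 5.89 and 13.9 CPM and the root cap gene SMB 2.35, 3.83 and 8.71 CPM in the 3 SIM libraries, and WOX5 was likewise highest in replicate 3. Without that library the list still had 18 falls and 4 rises. In Col-0 the same list had 16 falls and 3 rises, where 23.2% of all genes fell and 25.7% rose, with a median of -2.66. Tested as a difference of the change between genotypes, only PLT3 of the 24 genes passed (in either direction 7.36% of all genes did). The mutant's fall of PLT3 was larger by 0.34 ± 0.09 (adjusted p = 0.0305), and the call was lost without any 1 of 7 libraries, with an adjusted p of up to 0.107 without Col-0 SIM replicate 3.

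**Figure D2:**
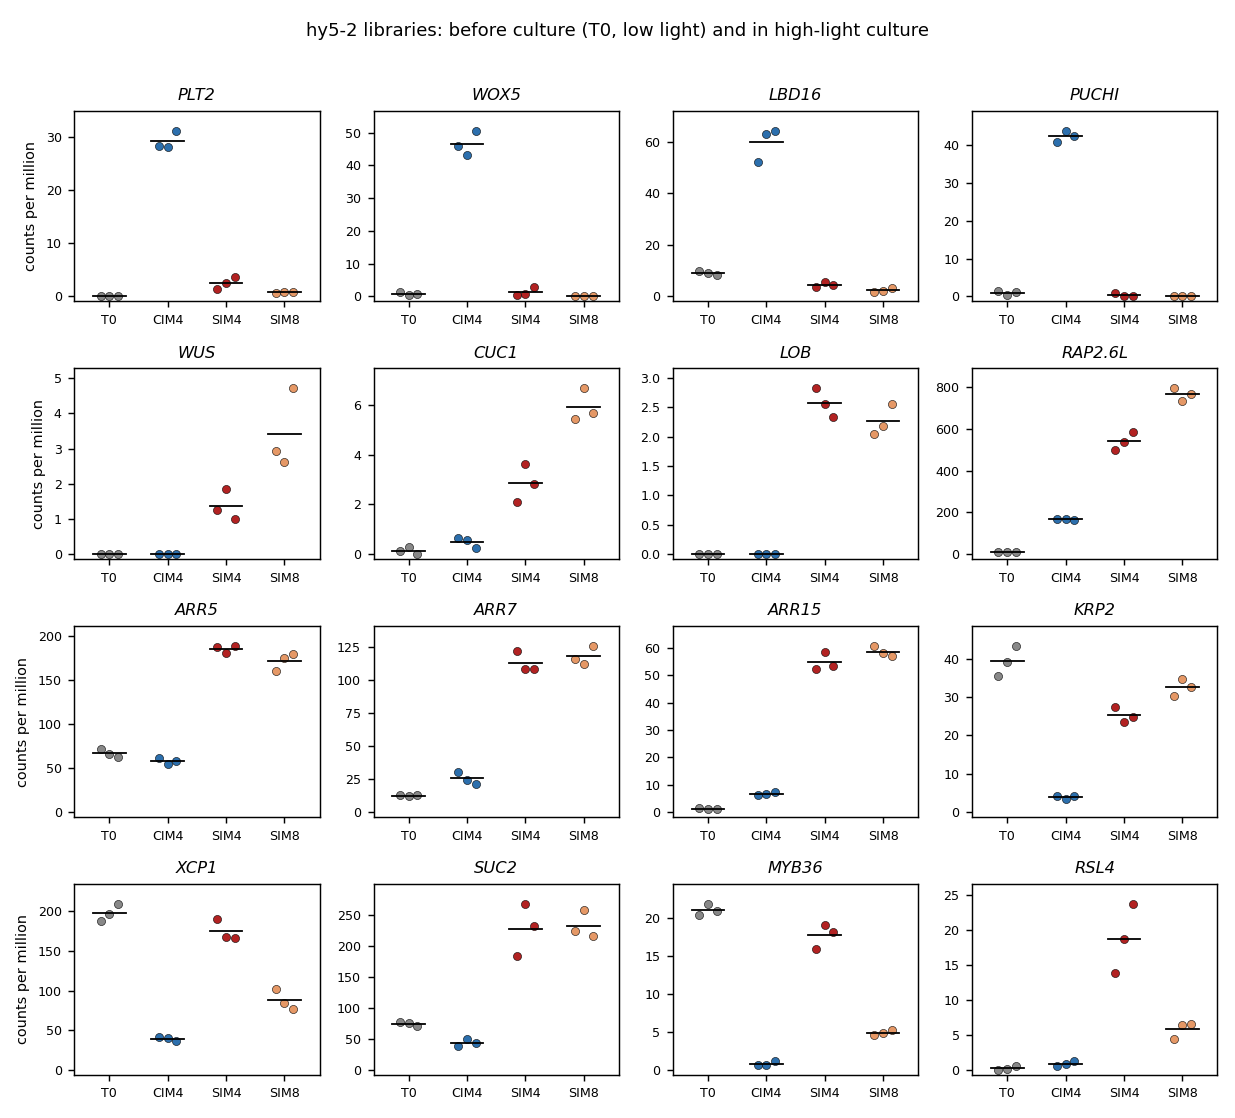
Levels in CPM of 16 marker genes in every hy5-2 library before culture (T0, low light) and after 4 days on CIM, 4 days on SIM and 8 days on SIM in high light; each point is 1 library and each line the mean of 3. Root primordium genes (top row) are high on CIM only, shoot genes and type-A response regulators are higher on SIM, and XCP1, MYB36 and RSL4 are highest of the cultured stages at 4 days on SIM.

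Most shoot meristem and boundary genes rose on shoot medium, the stem cell genes WUS and CLV3 to low levels. Of 23 listed genes 22 were tested, and 16 rose and 1 fell (median 1.15; 1.03 where genes without counts are set to their bound). WUS (AT2G17950, chromosome 2, 7808871 to 7810795), which encodes the homeobox factor that organises the shoot stem cell niche, had no count in the 3 CIM libraries and 1.25, 1.86 and 1.01 CPM on SIM. That is at least 20-fold higher, taking 3 counts over the CIM group as the floor (adjusted p = 8.73e-06). CLV3, the peptide gene of the stem cells themselves, had 0, 0.0707 and 0.0636 CPM on CIM and 0.235, 0.491 and 0.202 CPM on SIM. The CLV3 ratio was 6.64 (95% counting interval 1.41 to 62.3), and its call (adjusted p = 0.025) was lost without CIM replicate 1 (adjusted p = 0.0818) and without SIM replicate 2 (adjusted p = 0.121). STM, which keeps meristem cells undifferentiated, did not pass, with 0.439, 0.141 and 0.254 CPM on CIM and 0.627, 0.491 and 0.607 CPM on SIM (adjusted p = 0.129). STM and CLV3 were both higher after 8 days on SIM, at 3.02, 3.82 and 2.55 CPM and 1.24, 1.53 and 1.96 CPM.

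Boundary genes rose by widely different amounts. CUC1 (AT3G15170, chromosome 3, 5109883 to 5111447), a NAC factor that sets organ boundaries and meristem positions, went from 0.658, 0.566 and 0.254 CPM to 2.12, 3.63 and 2.83 CPM and rose by 2.52 ± 0.34 (adjusted p = 1.54e-07). CUC2, its partner, had 18.8, 24.2 and 23.7 CPM on CIM and 24.9, 31.7 and 38.4 CPM on SIM, a rise of 0.50 ± 0.15 (adjusted p = 0.00609) that was lost without SIM replicate 3 (adjusted p = 0.0741). The lowest SIM library of CUC2 stood only just above the highest CIM library. CUC3 had no count on CIM and 0.235, 0.392 and 0.101 CPM on SIM, at least 3.53-fold higher (adjusted p = 0.00284). LOB, the founding gene of the LBD family and a mark of organ boundaries, was without a count on CIM and at 2.82, 2.55 and 2.33 CPM on SIM, at least 37.3-fold higher (adjusted p = 1.09e-10). RAX1, a MYB factor of axillary meristems, rose by 4.07 ± 0.43 from 0.146, 0.424 and 0.318 CPM to 6.27, 4.42 and 4.76 CPM (adjusted p = 1.46e-09).

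Regeneration factors rose with them. ESR1, an ERF factor that promotes shoot formation, went from 1.17, 1.06 and 0.699 CPM to 2.27, 2.65 and 2.02 CPM, a rise of 1.25 ± 0.32 (adjusted p = 0.00128). RAP2.6L (AT5G13330, chromosome 5, 4272060 to 4274660), another ERF factor linked to shoot regeneration, rose by 1.68 ± 0.11 from 170.2, 171 and 164 CPM to 500.0, 536 and 584 CPM (adjusted p = 5.63e-14). Every SIM library was far above every CIM library. PNF, a homeobox partner of STM, was the 1 gene of the list to fall, from 4.39, 3.32 and 3.18 CPM to 0.157, 0.196 and 0.202 CPM (by 4.22 ± 0.41, adjusted p = 1.11e-10). In Col-0 17 genes of the list rose and 2 fell, and the difference between genotypes passed for CUC2 only. CUC2 had 8.17, 12.6 and 11.4 CPM on CIM and 22.4, 26.8 and 30.2 CPM on SIM in Col-0, so the mutant stood higher on callus medium and its rise was smaller by 0.82 ± 0.21 (adjusted p = 0.0197). That call was lost in 5 fits that left out 1 library and in the fit on the 12 libraries of this contrast alone (adjusted p up to 0.0730).

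Leaf polarity genes changed less. Of 15 listed genes 11 were tested, of which 6 rose and 1 fell, with a median of 0.40. PHV, a class III HD-ZIP gene of the upper leaf side and of vascular tissue, rose by 0.93 ± 0.08 from 102, 99 and 106 CPM to 191, 208 and 187 CPM (adjusted p = 5.47e-12). Its relatives CNA and REV rose by 0.62 ± 0.07 and 0.40 ± 0.09 (adjusted p = 1.03e-09 and 0.000174), whereas PHB fell by 0.70 ± 0.09 from 350.3, 405 and 375 CPM to 218, 249 and 227 CPM (adjusted p = 2.14e-08). AS1, a MYB gene of leaf founder cells, rose by 0.72 ± 0.10 (adjusted p = 8.86e-08). YAB1, a gene of the lower leaf side, had no count in any library of either medium and 0.622, 0.873 and 0.588 CPM after 8 days on SIM.

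Cytokinin response genes rose as a block. Of 10 listed type-A response regulators, which are induced by cytokinin and dampen its signal, 9 were tested and all 9 rose, with a median of 1.56. ARR15 (AT1G74890, chromosome 1, 28131590 to 28132710) went from 6.36, 6.5 and 7.37 CPM to 52.4, 58.7 and 53.6 CPM and rose by 3.02 ± 0.11 (adjusted p = 3.23e-21). ARR7 (AT1G19050, chromosome 1, 6577833 to 6579178) went from 30.4, 24.1 and 21.5 CPM to 122, 108 and 108 CPM, a rise of 2.16 ± 0.10 (adjusted p = 9.15e-19). ARR5 (AT3G48100, chromosome 3, 17758427 to 17760874) rose by 1.68 ± 0.06, from 61.3, 55.1 and 57.6 CPM to 188, 181 and 189 CPM (adjusted p = 1.36e-20). In all 3 genes the SIM libraries lay close together and well above every CIM library. The smallest rise was that of ARR4, 0.53 ± 0.09 (adjusted p = 3.07e-06), and ARR16 rose by 2.85 ± 0.34 from low levels of 1.39, 0.848 and 1.08 CPM (adjusted p = 1.68e-08). In Col-0 the same 9 genes rose with a median of 1.2. Only ARR6 passed the test of a difference, at 0.30 (adjusted p = 0.0239), a call lost in 7 alternative fits with an adjusted p of up to 0.0914 (without hy5-2 SIM replicate 2).

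Upstream and downstream cytokinin genes split. AHK4, the receptor most tied to shoot regeneration in culture, rose by 1.17 ± 0.06 from 99.8, 98.6 and 107 CPM to 233, 225 and 232 CPM (adjusted p = 2.52e-18). The type-B regulator ARR14 rose by 1.51 ± 0.15 (adjusted p = 1.22e-10), and the phosphotransfer gene AHP3 by 1.01 ± 0.11 (adjusted p = 9.83e-10). The cytokinin response factors CRF2, CRF3 and CRF6 fell by 2.30 ± 0.11, 0.85 ± 0.09 and 1.57 ± 0.12 (adjusted p = 1.68e-18, 5.31e-10 and 1.15e-12). AHP6, an inhibitory pseudo-phosphotransfer gene, fell from 1.39, 1.13 and 1.27 CPM to 0, 0 and 0.101 CPM, a ratio of 41.4 (95% counting interval 7.13 to 1666) (adjusted p = 1.33e-06). Over the perception and signalling list, 9 of 20 tested genes rose and 6 fell (all genes: 25.5% and 27.6%).

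Genes of cytokinin metabolism rose more often than they fell, and some of them changed differently in the mutant than in wild type. Of 20 genes 19 were tested, with 8 rises and 3 falls (all genes: 25.5% and 27.6%). The difference between genotypes was positive for 5 genes and negative for none (all genes: 4.28% and 3.08%). CKX4, a cytokinin oxidase gene, went from 0.292, 0.141 and 0.636 CPM to 5.25, 5.79 and 4.56 CPM in hy5-2 and from 0.55, 0.464 and 0.362 CPM to 0.943, 1.62 and 0.858 CPM in Col-0. It rose by 3.79 ± 0.32 in the mutant (adjusted p = 5.4e-12), more than in Col-0 by 2.50 ± 0.56 (adjusted p = 0.00383). CKX5 ranged from 71.3 to 78.2 CPM on CIM and from 71 to 87.9 CPM on SIM in the mutant, without passing (adjusted p = 0.424) and fell in Col-0 from 78.4, 76.1 and 80.2 CPM to 47.3, 52 and 52.9 CPM, a difference of 0.70 ± 0.12 (adjusted p = 0.000179). CKX1 rose by 1.56 ± 0.11 (adjusted p = 6.29e-14), and its difference of 0.49 (adjusted p = 0.0421) was lost in 13 alternative fits, among them that without Col-0 CIM replicate 1 (adjusted p = 0.172). IPT5, a cytokinin synthesis gene, had 0.392, 0.883 and 0.506 CPM on SIM in hy5-2 and 0, 0.0706 and 0 CPM in Col-0, with all CIM libraries between 0.848 and 1.24 CPM (difference 4.2 ± 0.86, adjusted p = 0.00174). IPT3, another synthesis gene, had no count on CIM and 0.392, 0.392 and 0.506 CPM on SIM in the mutant, at least 6.25-fold higher (adjusted p = 0.0183). In Col-0 IPT3 had 1.1, 0 and 0 CPM on CIM and 0, 0 and 0.0903 CPM on SIM, so its called difference (adjusted p = 0.0356) rests on 1 Col-0 CIM library and was lost in 11 alternative fits (adjusted p = 1 without that library). IPT1 rose by 1.98 ± 0.15 (adjusted p = 4.4e-13), and the cytokinin-activating genes LOG3, LOG5 and LOG8 fell by 2.38 ± 0.14, 2.08 ± 0.35 and 0.67 ± 0.09 (adjusted p = 8.54e-16, 6.11e-06 and 1.33e-07).

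Auxin-induced genes fell. Of 21 auxin response genes, all tested, 11 fell and 4 rose (median -0.29). GH3.5 (AT4G27260, chromosome 4, 13653609 to 13656204), an auxin-conjugating enzyme gene, went from 562, 641 and 627 CPM to 102, 119.8 and 125 CPM and fell by 2.40 ± 0.16 (adjusted p = 1.26e-12). GH3.1 fell by 3.32 ± 0.17 (adjusted p = 9.05e-16) and IAA14, a repressor of lateral root initiation, by 2.09 ± 0.12 (adjusted p = 9.6e-16). GH3.2 fell by 1.70 ± 0.14 from 200.3, 201 and 189 CPM to 51.8, 64.1 and 67 CPM (adjusted p = 1.12e-10). Its fall was smaller than that of Col-0 by 0.70 (adjusted p = 0.031), a call lost in 11 alternative fits (adjusted p up to 0.0927, without hy5-2 SIM replicate 3). IAA3, IAA12, MP and TMO5 were the genes that rose, TMO5 by 0.54 ± 0.09 from 34.3, 33.2 and 35.1 CPM to 50.4, 52.7 and 46.3 CPM (adjusted p = 2.76e-06), MP being the auxin response factor that activates TMO5 in vascular precursors.

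Transport and synthesis genes of auxin, 17 of 20 tested, gave 5 rises and 7 falls, where 25.5% of all genes rose and 27.6% fell. LAX3, an influx carrier, fell by 1.2 ± 0.10 (adjusted p = 1.26e-11), and TAA1, which makes the auxin precursor, by 2.70 ± 0.31 (adjusted p = 7.41e-09). PID, a kinase that polarises PIN carriers, rose by 0.72 ± 0.13 (adjusted p = 4.49e-05) and the synthesis gene YUC6 by 0.76 ± 0.16 (adjusted p = 0.000136). PIN4 did not pass in the mutant, at 49.8, 44.3 and 43.7 CPM and 50, 46.4 and 48.2 CPM, and rose in Col-0 by 0.55 ± 0.10 (difference -0.47, adjusted p = 0.0339, lost in 6 fits that left out 1 library, with an adjusted p of up to 0.099 without hy5-2 CIM replicate 1). YUC8 had 2.49, 3.46 and 2.35 CPM on CIM and 1.33, 0.981 and 1.72 CPM on SIM in the mutant, and 1.65, 2.25 and 2.31 CPM on CIM and 0, 0.212 and 0.181 CPM on SIM in Col-0. Its fall in hy5-2 was called (adjusted p = 0.0198) but lost without CIM replicate 2, SIM replicate 1 or SIM replicate 2 (adjusted p up to 0.0948), and its difference of 2.62 (adjusted p = 0.0204) was lost without hy5-2 SIM replicate 3, Col-0 SIM replicate 1 or Col-0 SIM replicate 3 (adjusted p up to 0.0627). Of 8 gibberellin metabolism genes tested 1 rose and 4 fell: the synthesis gene GA3OX2 fell by 3.78 ± 0.26 (adjusted p = 5.06e-14), the breakdown gene GA2OX4 by 3.33 ± 0.20 (adjusted p = 1.35e-15), and the breakdown gene GA2OX2 rose by 0.76 ± 0.15 (adjusted p = 0.000105).

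Cell division genes mostly fell on shoot medium, those of DNA replication by small and even amounts. All 15 DNA replication genes fell, with log2 fold changes from -0.85 to -0.36 and a median of -0.61. MCM6, a subunit of the replicative helicase, went from 67, 63.3 and 70.5 CPM to 39.3, 37.3 and 37.3 CPM and fell by 0.82 ± 0.07 (adjusted p = 2.36e-12). MCM2 fell by 0.69 ± 0.06 from 137, 129 and 136 CPM to 81.5, 82.2 and 85.6 CPM (adjusted p = 8.44e-12), and MCM7 by 0.85 ± 0.07 (adjusted p = 8.68e-13). PCNA2, the sliding clamp gene, fell by 0.83 ± 0.07 (adjusted p = 3.23e-12). The differences between replicates were small beside these changes, and no CIM library of the named genes was below a SIM library. In Col-0 12 of the 15 fell, with a median of -0.38, and the mutant's change was more negative for 7 genes (all genes: 3.08%). For MCM6 the Col-0 levels were 48.7, 51.9 and 50.2 CPM on CIM and 41, 39.1 and 39.2 CPM on SIM (difference -0.48 ± 0.09, adjusted p = 0.00113), and for MCM2 they were 105, 106 and 104 CPM on CIM and 81.9, 78.3 and 81.6 CPM on SIM (difference -0.31 ± 0.08, adjusted p = 0.0194). On SIM the MCM6 and MCM2 levels of mutant and wild type overlapped, and on CIM the mutant was higher in every library.

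Of 40 cell cycle genes, all tested, 24 fell and 6 rose (median -0.32). CYCB1;1 (AT4G37490, chromosome 4, 17621886 to 17624285), the mitotic cyclin used as a division marker, went from 32.3, 31.7 and 33.6 CPM to 16.6, 19.9 and 19.1 CPM and fell by 0.82 ± 0.09 (adjusted p = 2.06e-09). CYCD3;3, a cytokinin-linked D-type cyclin, fell by 1.41 ± 0.14 (adjusted p = 2.3e-10) and CYCB2;1 by 1.28 ± 0.12 (adjusted p = 4.91e-11). The 6 genes that rose were all inhibitors of cyclin-dependent kinases: KRP1, KRP2, KRP5, KRP6, KRP7 and SIAMESE. The call of KRP1 was lost without SIM replicate 1 (adjusted p = 0.0998). KRP2 rose by 2.67 ± 0.15, from 4.17, 3.46 and 4.19 CPM to 27.3, 23.4 and 24.8 CPM (adjusted p = 2.64e-16), and KRP7 by 1.04 ± 0.16 (adjusted p = 1.18e-06). SIAMESE (gene symbol SIM, AT5G04470), which promotes endoreduplication, rose by 1.09 ± 0.12 from 14.8, 12.5 and 11.3 CPM to 24.2, 25.9 and 32.2 CPM (adjusted p = 3.08e-09). Its rise exceeded that of Col-0 by 0.63 ± 0.17 (adjusted p = 0.0158), a call lost without hy5-2 CIM replicate 3, hy5-2 SIM replicate 3 or Col-0 SIM replicate 2 (adjusted p up to 0.0746). The difference was negative for 7 cell cycle genes and positive for 1 (all genes: 3.08% and 4.28%). Among the 7 was the mitotic activator MYB3R4, which fell in hy5-2 from 97.3, 91.8 and 97.1 CPM to 80.6, 77.2 and 70.8 CPM. In Col-0 MYB3R4 had 87.7, 80.8 and 88.9 CPM on CIM and 99.8, 90.5 and 90.8 CPM on SIM (difference -0.45 ± 0.09, adjusted p = 0.00192). AUR1, a mitotic kinase gene, fell by 0.76 ± 0.07 (adjusted p = 1.33e-10), and its difference of -0.32 (adjusted p = 0.0486) was lost in 14 alternative fits.

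Vascular genes rose. Of 18 xylem genes tested out of 20, 15 rose and 1 fell, with a median of 1.55. XCP1 (AT4G35350, chromosome 4, 16810482 to 16812009), a protease gene of dying vessel elements, went from 41, 40.7 and 36.7 CPM to 191, 168 and 167 CPM and rose by 2.15 ± 0.12 (adjusted p = 7.27e-15). VND7, a NAC master switch of vessel formation, rose by 2.16 ± 0.16 from 2.19, 2.47 and 2.61 CPM to 10.4, 10.7 and 11.5 CPM (adjusted p = 5.1e-13), and VND6 by 1.61 ± 0.21 (adjusted p = 6.46e-08). The secondary wall cellulose synthase genes CESA4, CESA7 and CESA8 rose by 1.5 ± 0.15, 1.21 ± 0.15 and 1.49 ± 0.15 (adjusted p = 8.17e-10, 3.87e-08 and 1.11e-09). RNS3, a ribonuclease gene, was the 1 gene to fall, by 0.47 ± 0.14 (adjusted p = 0.00544). After 8 days on SIM XCP1 was lower again, at 102, 84 and 76.7 CPM, and the 3 cellulose synthase genes fell with it. In Col-0 XCP1 went from 63.6, 74.6 and 73.3 CPM to 229.6, 195 and 217 CPM, and the larger rise of the mutant (0.55, adjusted p = 0.04) was lost in 11 alternative fits (adjusted p up to 0.114, without hy5-2 CIM replicate 3).

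Phloem and cambium genes, all 15 tested, gave 11 rises and 1 fall (median 0.83). SUC2, the sucrose transporter of companion cells, rose by 2.37 ± 0.17 from 38.4, 50 and 43 CPM to 184, 267 and 231 CPM (adjusted p = 5.04e-12). OPS, a protophloem gene, rose by 1.09 ± 0.08 (adjusted p = 2.9e-13), and CLE41, the peptide gene that signals from phloem to cambium, by 1.31 ± 0.08 (adjusted p = 8.48e-15). Its receptor gene PXY and the cambium gene WOX4 rose by 0.83 ± 0.09 and 1.18 ± 0.12 (adjusted p = 2.59e-09 and 1.83e-09). The 1 fall, of CVP2 by 0.25 ± 0.08 (adjusted p = 0.0145), was lost without CIM replicate 1 or SIM replicate 3 (adjusted p = 0.0678 and 0.0843). PP2-A1, a phloem lectin gene, rose by 1.16 ± 0.11 in the mutant (adjusted p = 2.54e-10) and more than in Col-0 by 0.66 ± 0.16 (adjusted p = 0.0101, and 0.0591 without Col-0 CIM replicate 1).

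Endodermis and suberin genes rose in the mutant without exception, and 7 of them rose more than in wild type. All 13 genes were tested and all 13 rose, with a median of 4.23, and the summed level of the list went from between 24.3 and 31.8 CPM on CIM to between 193 and 206 CPM on SIM. Before culture the sum was higher than on either medium, at 691 to 750.0 CPM. In Col-0 9 of the 13 rose with a median of 2.14. The difference between genotypes was positive for 7 genes and negative for none (all genes: 4.28% and 3.08%). CYP86A1 (AT5G58860, chromosome 5, 23765814 to 23768049), which hydroxylates fatty acids for suberin, went from 1.1, 1.2 and 0.572 CPM to 38.4, 44.1 and 38.4 CPM in hy5-2 and from 6.28, 4.31 and 2.31 CPM to 27, 27.7 and 20.4 CPM in Col-0. It rose by 5.40 ± 0.33 in the mutant (adjusted p = 3.21e-13), more than in Col-0 by 2.87 ± 0.50 (adjusted p = 0.000552). The mutant was below Col-0 in every CIM library and above it in every SIM library, and the same held for ASFT, the feruloyl transferase of suberin. ASFT (AT5G41040, chromosome 5, 16431374 to 16433305) went from 1.32, 2.62 and 1.27 CPM to 32.7, 33.5 and 31.3 CPM in hy5-2 and from 4.16, 5.96 and 3.4 CPM to 16.6, 21 and 16.9 CPM in Col-0 (difference 2.23 ± 0.34, adjusted p = 7.79e-05).

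FAR4, a reductase that makes suberin alcohols, started lower in the mutant and ended higher: it went from 14.9, 8.48 and 9.15 CPM to 39.6, 35.6 and 36.1 CPM in hy5-2 (adjusted p = 9.96e-08) and from 37.4, 23.5 and 18.3 CPM to 21.7, 20.6 and 19.8 CPM in Col-0 (adjusted p = 0.161). Its difference was 2.14 ± 0.30 (adjusted p = 4.34e-05). GPAT5, an acyltransferase of suberin, rose by 4.82 ± 0.41 from 0.365, 0.0707 and 0.445 CPM to 7.53, 9.91 and 8.91 CPM (adjusted p = 1.5e-11). Its difference of 2.32 (adjusted p = 0.0258) was lost without Col-0 CIM replicate 2 (1.62, adjusted p = 0.255), without hy5-2 CIM replicate 2 (adjusted p = 0.0943) and without Col-0 SIM replicate 3 (adjusted p = 0.0529). MYB36, the switch into endodermal differentiation, rose by 4.40 ± 0.19 from 0.658, 0.636 and 1.14 CPM to 15.8, 19 and 18.1 CPM (adjusted p = 2.12e-19). For MYB36 the difference between genotypes did not pass (0.31 ± 0.40, adjusted p = 0.769), although its mutant SIM libraries lay above those of Col-0 (9.9, 7.77 and 9.84 CPM).

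Genes of the Casparian strip, the lignin ring of the endodermis, rose from near zero. CASP1, a membrane scaffold protein gene, had 0.146, 0 and 0 CPM on CIM and 6.9, 8.44 and 10.4 CPM on SIM, a ratio of 184 (95% counting interval 50.4 to 1525), and rose (adjusted p = 1.4e-13). In Col-0 its SIM libraries reached 0.236, 0.918 and 0.316 CPM, yet the difference did not pass (adjusted p = 0.587). GSO1, the receptor kinase that monitors the strip, went from 0.585, 0.566 and 0.572 CPM to 11.4, 10.3 and 10.7 CPM in the mutant and from 1.73, 0.795 and 0.579 CPM to 3.54, 3.6 and 4.02 CPM in Col-0 (difference 2.32 ± 0.42, adjusted p = 0.000444). ESB1, a dirigent protein gene of the strip, had a difference of 0.83 ± 0.15 (adjusted p = 0.000546). PER64, its peroxidase gene, rose by 5.10 ± 0.33 from 0.0731, 0.141 and 0.127 CPM to 4.08, 4.02 and 4.86 CPM (adjusted p = 7.93e-15), and its difference of 2.91 (adjusted p = 0.0135) was lost without Col-0 CIM replicate 1 or 3 (adjusted p = 0.0656 and 0.0611). CASP1, GSO1, ESB1 and PER64 overlap annotated neighbours, so the origin of part of their reads is uncertain.

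**Figure D3:**
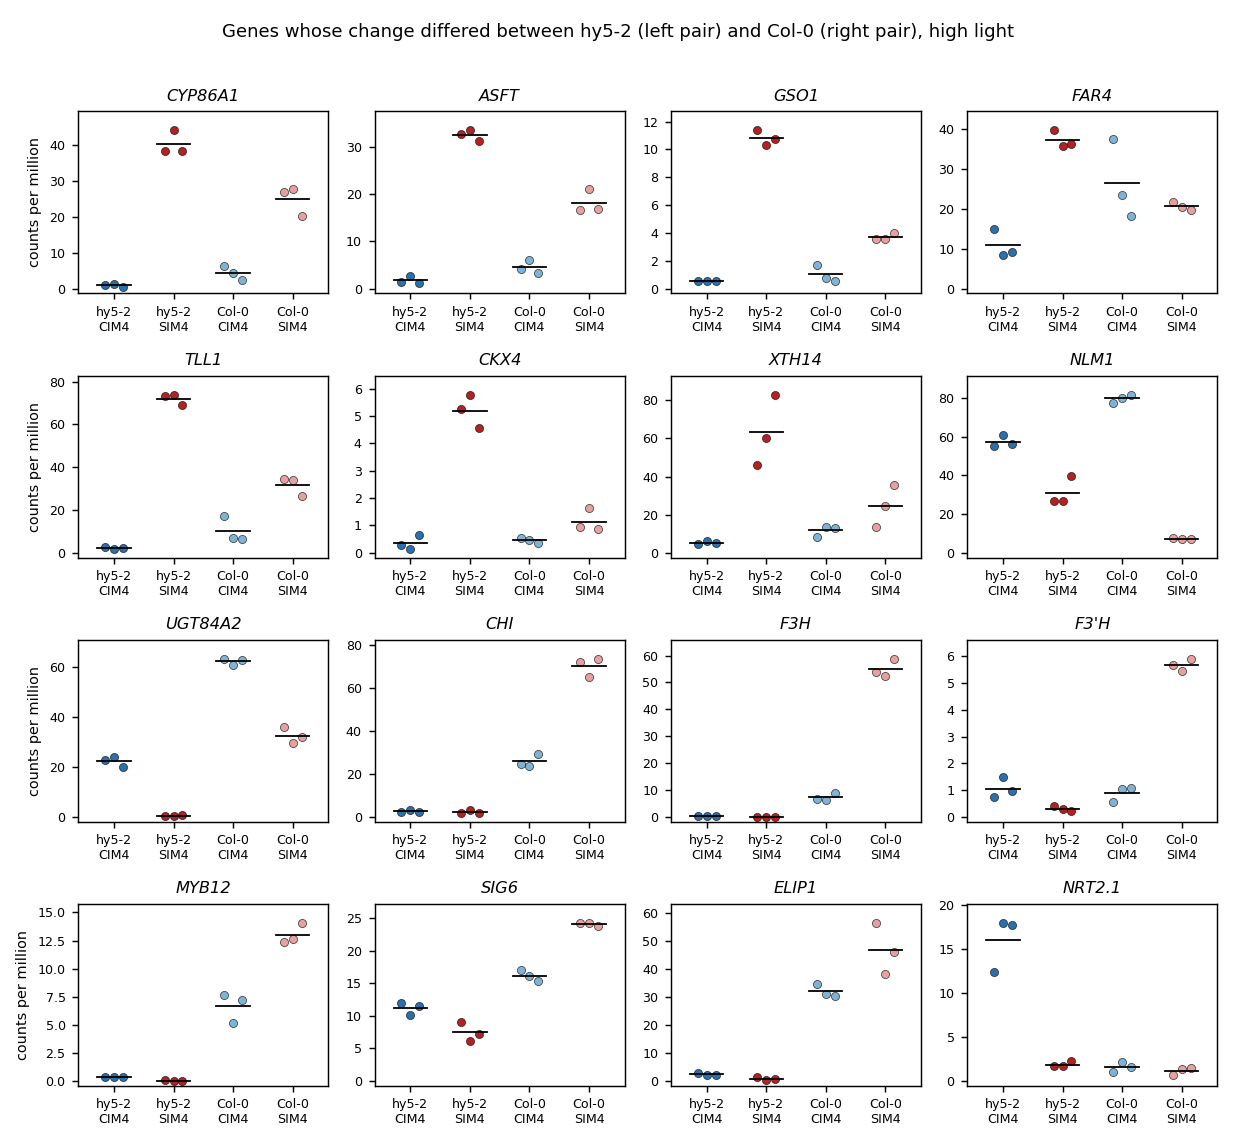
Levels in CPM of 16 genes whose change differed between genotypes, in the 3 libraries of each of 4 high-light groups (hy5-2 CIM and SIM 4 days on the left, Col-0 CIM and SIM 4 days on the right); each point is 1 library and each line the mean of 3. Suberin genes such as CYP86A1 and ASFT start lower and end higher in hy5-2, whereas CHI, F3H, F3'H, MYB12 and SIG6 are lower in hy5-2 than in Col-0 in every SIM library.

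Root hair wall genes were among the largest rises of the comparison: LRX1, PRP3, EXPA7 and EXPA18 of the list stood among the 10 largest of genes with a symbol that averaged at least 5 CPM over the 6 libraries. Of 15 listed genes 14 were tested, and 9 rose and 3 fell (median 3.96), without SIM replicate 3 likewise 9 rises and then 2 falls. The 3 SIM libraries ranged from 378 to 589 CPM in the summed level of the list and the CIM libraries from 39.3 to 43.5 CPM. RSL4, the factor that drives hair growth, went from 0.585, 0.778 and 1.27 CPM to 13.9, 18.6 and 23.7 CPM and rose by 4.36 ± 0.37 (adjusted p = 5.98e-11). RHD6, which starts hair formation, rose by 2.64 ± 0.27 from 3.73, 3.25 and 3.11 CPM to 17.3, 20.7 and 25.4 CPM (adjusted p = 3.63e-09). Replicate 3 was the highest SIM library for both. The wall genes EXPA7, EXPA18 and LRX1 had no count on CIM and reached 25.7 to 42.6, 21.1 to 39.1 and 55.3 to 88.4 CPM on SIM. These were at least 529.7-fold, 427-fold and 1004-fold higher (adjusted p = 3.2e-11, 1.5e-07 and 7.77e-12).

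Extensin genes stood beside them among these 10. HRGP1 (AT3G54590, chromosome 3, 20206160 to 20208472) had a single count over the CIM libraries and 671, 663 and 944 CPM on SIM, a ratio of 32696 (95% counting interval 5868 to 1291490.0) (adjusted p = 9.96e-15). EXT6, EXT12 and EXT13 had no count on CIM and stood at 149 to 226, 137 to 207 and 34.7 to 64 CPM on SIM, at least 2562-fold, 2365-fold and 665-fold higher. Extensins are repetitive and alike in sequence, so reads may be split among them. RHS12, a root hair gene, and MLP328 were likewise without a count on CIM and rose to 21.9 to 36.5 and 16.6 to 25.1 CPM, and PRP3 to 123 to 199 CPM from a single count (ratio 6533 (95% counting interval 1172 to 258108)). The genes that fell on the root hair list were CPC, GL2 and WER, which decide between hair and non-hair fate: WER fell by 1.60 ± 0.32 and CPC by 1.28 ± 0.20 (adjusted p = 6.14e-05 and 1.22e-06), while the call of GL2 (adjusted p = 0.0434) was lost in 4 alternative fits (adjusted p up to 0.209, without CIM replicate 2). XTH14, a wall-loosening enzyme gene, was the 1 member with a called difference between genotypes. It went from 4.6, 6.29 and 5.02 CPM to 45.9, 60.4 and 83 CPM in hy5-2 and from 8.48, 13.8 and 13.2 CPM to 13.4, 24.6 and 35.7 CPM in Col-0 (difference 2.45 ± 0.45, adjusted p = 0.00105).

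Epidermis and stomata genes fell. Of 14 listed genes 9 were tested, and 8 fell and none rose (median -2.34; 8 fell in Col-0). PDF1 (AT2G42840, chromosome 2, 17826116 to 17827536), a marker of the outer cell layer, went from 219, 266 and 266 CPM to 2.74, 3.63 and 5.16 CPM and fell by 6.05 ± 0.40 (adjusted p = 5.04e-12). PDF2 and ATML1, the homeobox genes that specify epidermis, fell by 3.11 ± 0.20 and 2.47 ± 0.18 (adjusted p = 4.72e-13 and 1.22e-12). CER6, a wax synthesis gene, went from 169, 189 and 179 CPM to 41.6, 56.2 and 64.4 CPM in hy5-2 and from 144, 140.2 and 151 CPM to 20, 23 and 25 CPM in Col-0. It fell less in the mutant, by 0.93 ± 0.21 (adjusted p = 0.00505). After 8 days on SIM PDF2 stood at 0.622, 0.983 and 1.37 CPM and ATML1 at 0.711, 0.873 and 1.67 CPM, below every library of the earlier stages.

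Among the genes with a symbol that fell, SRS4, RBK2, AOX1B, CYP77B1, BXL3, SCRL26, JP630 and SOM stood with PUCHI and PDF1 as the 10 largest falls with at least 5 CPM on average. SRS4 (AT2G18120, chromosome 2, 7876615 to 7877681), a zinc-finger gene of the SHI family, had 14.4, 14.3 and 15.4 CPM on CIM and no count in any SIM library, at least 161-fold lower (adjusted p = 4.26e-17). In Col-0 SRS4 fell from 13.6, 13.9 and 14.8 CPM to 0.236, 0.212 and 0.497 CPM, and its fall was larger in the mutant by the fit (adjusted p = 0.00347). RBK2, a kinase gene, had 68.1, 73.7 and 71.9 CPM on CIM and 0.0784, 0.392 and 0.304 CPM on SIM and fell by 8.12 ± 0.28 (adjusted p = 6.26e-20). AOX1B, an alternative oxidase gene, fell by 7.77 ± 0.21 and CYP77B1, a cytochrome P450 gene, by 7.73 ± 0.27 (adjusted p = 2.48e-20 and 2.55e-18). All 3 CIM libraries exceeded all 3 SIM libraries for each of the 10, which was a condition of this ranking and not a result.

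Light signalling genes rose modestly without HY5. Of 26 listed genes 25 were tested, and 13 rose and 1 fell (median 0.41; 19 rose and 1 fell in Col-0). BBX20, a B-box cofactor of HY5, went from 1.02, 0.495 and 0.445 CPM to 12.5, 13.4 and 12.6 CPM and rose by 4.29 ± 0.29 (adjusted p = 2.7e-14). In Col-0 BBX20 went from 0.785, 0.729 and 0.217 CPM to 12.7, 12.1 and 13.6 CPM, and the difference was -0.16 ± 0.53 (adjusted p = 0.92). BBX24, a B-box repressor, rose by 0.95 ± 0.09 from 51, 51.2 and 47.5 CPM to 89.2, 104 and 95.4 CPM (adjusted p = 4.75e-11), more than in Col-0 by 0.49 ± 0.12 (adjusted p = 0.00897). CRY2, a blue-light receptor gene, rose by 0.53 ± 0.05 (adjusted p = 6.79e-10). ELIP1, a light-stress protein gene of the thylakoid whose G-box is shown above, was the gene that fell, from 3, 2.26 and 2.29 CPM to 1.25, 0.294 and 0.81 CPM (by 1.60 ± 0.45, adjusted p = 0.00419). In Col-0 ELIP1 rose from 34.6, 31.1 and 30.4 CPM to 56.5, 38.2 and 46 CPM, and the difference was -2.14 ± 0.48 (adjusted p = 0.00526). Among 8 PIF and shade genes, PIF5 and PIF7 rose and PIF3 and ATHB2 fell: PIF5 rose by 2.87 ± 0.32 (adjusted p = 3.29e-09), ATHB2 fell by 0.69 ± 0.14 (adjusted p = 7.16e-05), and the call of PIF7 was lost without CIM replicate 1 or SIM replicate 2 (adjusted p = 0.0967 and 0.171).

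Few photosystem genes passed in either direction in the mutant. Of 45 nuclear photosystem and Rubisco genes, all tested, 1 rose and 2 fell (median -0.24), whereas in Col-0 34 rose and 1 fell (median 0.81). The summed level of the list was 198 to 318 CPM on CIM and 194 to 257 CPM on SIM in hy5-2, and in Col-0 it was 1065 to 1560 CPM on CIM and 2212 to 2651 CPM on SIM. Over the alternative fits the counts in hy5-2 ranged from 1 to 5 rises and from 0 to 11 falls. The test of the difference between genotypes passed for 4 of the 45 genes, all with a more negative change in the mutant (all genes: 3.08%). Over the list the median difference was -1.07. For most of its genes the unlike counts of the genotypes nevertheless stand without a called difference. The 4 genes were RBCS1A, PSAE2, PSAF and GAPB. RBCS1A, a Rubisco small subunit gene, had 20.1, 8.98 and 7.5 CPM on CIM and 7.53, 4.32 and 3.34 CPM on SIM in hy5-2, and 194, 117 and 98.2 CPM on CIM and 286, 333 and 265 CPM on SIM in Col-0. Its difference of -2.32 (adjusted p = 0.0341) was lost in 7 alternative fits, with an adjusted p of up to 0.156 without hy5-2 CIM replicate 1, the highest of the 3 mutant CIM libraries. PSAF, a photosystem I subunit gene, had 21.5, 15.3 and 13.6 CPM on CIM and 14.9, 13.1 and 10.5 CPM on SIM in the mutant, and 70.7, 66.5 and 58.2 CPM on CIM and 96.3, 112 and 108 CPM on SIM in Col-0 (difference -1.07 ± 0.28, adjusted p = 0.0174). The mutant's groups overlapped and those of Col-0 did not, and the call was lost without hy5-2 CIM replicate 1 or hy5-2 SIM replicate 3 (adjusted p = 0.0721 and 0.0601). The calls of PSAE2 and GAPB were lost in 5 and 7 fits that left out 1 library (adjusted p up to 0.128 and 0.139, both without hy5-2 CIM replicate 1). PSBO2, of the oxygen-evolving complex, was the 1 gene to rise in hy5-2, from 1.39, 1.13 and 0.763 CPM to 2.67, 2.85 and 3.04 CPM (by 1.38 ± 0.41, adjusted p = 0.00511). The falls of LHCB1.1 and LHCB4.2 (adjusted p = 0.0477 and 0.0282) came from genes below 3 CPM in the mutant and were lost in 7 and 4 alternative fits, and reads of LHCB1 and RBCS genes may be split among near-identical copies.

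Few chlorophyll synthesis genes and greening regulators rose in the mutant. Of 23 genes tested out of 24, 1 rose and 5 fell in hy5-2 (median -0.18; -0.10 where genes without counts are set to their bound), and 18 rose and 1 fell in Col-0 (median 0.59). The difference passed for 9 genes, all more negative in the mutant, where a more negative change was called for 3.08% of all genes. SIG6, a sigma factor of the plastid RNA polymerase, fell in hy5-2 from 11.9, 10.1 and 11.5 CPM to 9.02, 6.18 and 7.29 CPM and rose in Col-0 from 17, 16.2 and 15.3 CPM to 24.3, 24.3 and 23.8 CPM. That difference was -1.14 ± 0.21 (adjusted p = 0.000599), with both genotypes moving in called directions (adjusted p = 0.0044 in hy5-2 and 0.000527 in Col-0). CHLD, a magnesium chelatase subunit gene, had 30.3, 30.3 and 26.1 CPM and 28.6, 31.5 and 28.2 CPM in the mutant and rose in Col-0 from 44.9, 39.8 and 36.9 CPM to 63.1, 59.4 and 60.1 CPM (difference -0.56 ± 0.12, adjusted p = 0.00269). CHLH, another chelatase subunit, had a difference of -1.10 (adjusted p = 0.0252), lost in 6 alternative fits (adjusted p up to 0.102, without hy5-2 CIM replicate 1). GUN4, which activates the chelatase, had 0.804, 0.283 and 0.191 CPM and 0.157, 0.196 and 0.202 CPM in the mutant and 5.34, 4.37 and 3.33 CPM on CIM and 14.1, 11.3 and 13.5 CPM on SIM in Col-0. Its difference of -2.71 (adjusted p = 0.0176) was lost without hy5-2 CIM replicate 1 (adjusted p = 0.232) and without hy5-2 SIM replicate 1 (adjusted p = 0.0541).

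Flavonoid pathway genes moved in both directions in the mutant. Of 24 genes tested out of 28, 9 rose and 6 fell in hy5-2, where 25.5% of all genes rose and 27.6% fell. The median was 0.22, or 0 where genes without counts are set to their bound. In Col-0 16 rose and 4 fell (median 1.04), where 25.7% of all genes rose and 23.2% fell. PAL1 (AT2G37040, chromosome 2, 15557376 to 15560363), the entry enzyme of the phenylpropanoid pathway, went from 167, 160.3 and 153 CPM to 517, 443 and 434 CPM and rose by 1.54 ± 0.08 (adjusted p = 8.98e-18). PAL2 and C4H, which act at the same end of the pathway, rose by 1.62 ± 0.09 and 1.19 ± 0.07 (adjusted p = 1.22e-16 and 4.13e-15). The differences between genotypes did not pass for any of these 3 genes (adjusted p = 0.422, 0.36 and 0.117). CHS (AT5G13930, chromosome 5, 4488688 to 4490264), chalcone synthase, the first committed flavonoid step, had no count on CIM and 1.18, 0.981 and 1.01 CPM on SIM in hy5-2, at least 15.3-fold higher (adjusted p = 0.00197). In Col-0 CHS went from 13.7, 12.3 and 15.3 CPM to 350.1, 361 and 392 CPM. The mutant's SIM level was thus far below the Col-0 level on either medium, while the difference of the log2 changes did not pass (adjusted p = 0.673). CHS overlaps an annotated neighbour.

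Several later steps rose in Col-0 and fell or did not pass in the mutant. F3H, flavanone hydroxylase, had 0.512, 0.424 and 0.254 CPM and 0.0784, 0.0981 and 0.101 CPM in hy5-2, a ratio of 4.27 (95% counting interval 1.24 to 22.7), and went from 6.6, 6.16 and 8.9 CPM to 53.8, 52.5 and 58.9 CPM in Col-0 (difference -4.90 ± 0.80, adjusted p = 0.00012). The fall of F3H within the mutant rests on few counts (adjusted p = 0.0424, lost in 5 fits that left out 1 library, with an adjusted p of up to 0.117), and the gene overlaps an antisense neighbour. F3'H, the enzyme that hydroxylates the flavonoid B ring, fell in hy5-2 from 0.731, 1.48 and 0.953 CPM to 0.392, 0.294 and 0.202 CPM (adjusted p = 0.000413) and rose in Col-0 from 0.55, 1.06 and 1.09 CPM to 5.66, 5.44 and 5.91 CPM, a difference of -4.39 ± 0.46 (adjusted p = 1.32e-07). The CIM levels of F3'H overlapped between genotypes, and the SIM levels did not. CHI, chalcone isomerase, ranged from 2.27 to 3.25 CPM on CIM and from 1.72 to 3.04 CPM on SIM in hy5-2 (adjusted p = 0.324), and in Col-0 it rose from 24.9, 23.7 and 29.2 CPM to 72.4, 65.5 and 73.9 CPM (difference -1.73 ± 0.26, adjusted p = 3.57e-05). UGT78D2, a flavonoid glucosyltransferase, rose in both, by 0.44 ± 0.12 in hy5-2 and by 1.11 ± 0.10 in Col-0 (difference -0.67 ± 0.16, adjusted p = 0.0054).

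Among the regulators of the pathway, MYB12 moved in opposite directions. MYB12 (AT2G47460, chromosome 2, 19476337 to 19479478), which activates flavonol genes and whose G-box is shown above, had 0.365, 0.353 and 0.318 CPM on CIM and 0.0784, 0 and 0 CPM on SIM in hy5-2, a fall with a ratio of 11.3 (95% counting interval 1.74 to 476) (adjusted p = 0.00242). In Col-0 it rose from 7.62, 5.17 and 7.23 CPM to 12.4, 12.6 and 14.1 CPM, and the difference was -4.07 ± 0.78 (adjusted p = 0.000822). MYB11, its close relative, fell in both genotypes, from 0.95, 1.06 and 1.02 CPM to no count in hy5-2 (at least 11-fold lower) and from 5.97, 6.76 and 5.79 CPM to 0.118, 0.141 and 0 CPM in Col-0. GL3, a bHLH factor of anthocyanin and hair fate, fell by 1.23 ± 0.29 (adjusted p = 0.000683). A more negative change in the mutant was called for 5 flavonoid genes (all genes: 3.08%). Of these 5, F3H and MYB12 held a G-box in the 300 bases before their start, and CHI, F3'H and UGT78D2 held no such letters there.

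**Figure D4:**
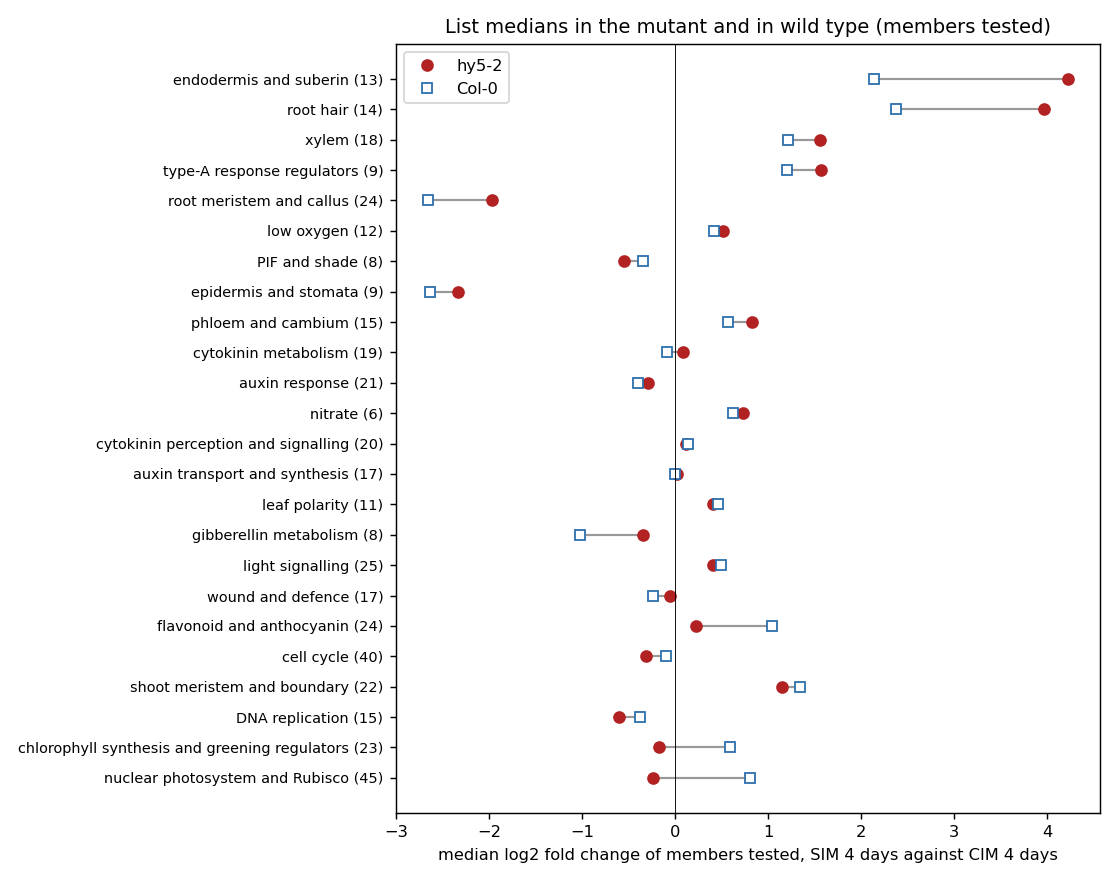
Median log2 fold change from CIM 4 days to SIM 4 days over the tested members of each gene list in hy5-2 (red circles) and Col-0 (blue squares), with the number of genes tested in brackets and lists ordered by the median difference between the genotypes. Endodermis and suberin genes have medians of 4.23 and 2.14 in hy5-2 and Col-0, and photosystem genes of -0.24 and 0.81.

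Stress, oxygen and nitrogen genes filled the remaining lists. Of 12 low-oxygen genes 8 rose and 1 fell (median 0.51): HB1, a haemoglobin gene, rose by 1.47 ± 0.12 from 14.3, 14.9 and 15.3 CPM to 37.3, 45.9 and 40.6 CPM (adjusted p = 4.01e-12), and HRA1, a repressor of the low-oxygen response, by 1.01 ± 0.12 (adjusted p = 4.76e-09). Of 17 wound and defence genes tested 5 rose and 7 fell (all genes: 25.5% and 27.6%). VSP2 and VSP1, jasmonate-induced storage protein genes, rose by 6.12 ± 0.22 and 5.08 ± 0.17, VSP2 from 1.1, 1.13 and 1.08 CPM to 84.1, 70.2 and 78.4 CPM (adjusted p = 2.68e-19 and 1.28e-20). PR1, a salicylate-induced defence gene, had 2.7, 0.919 and 2.48 CPM on CIM and no count on SIM, at least 22.3-fold lower (adjusted p = 8.78e-07). WIND1, a wound-induced factor that promotes callus, rose by 0.52 ± 0.11 (adjusted p = 0.00032). Neither the low-oxygen list nor the wound and defence list had a member with a called difference between genotypes.

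The 6 nitrate genes changed by role. Nitrate reductase gene NIA2 rose by 1.01 ± 0.06 from 619, 614 and 609 CPM to 1173, 1272 and 1273 CPM (adjusted p = 2.26e-16), and NIA1 by 1.11 ± 0.07 (adjusted p = 2.99e-15). NRT2.1, a high-affinity nitrate transporter gene, fell from 12.4, 18 and 17.7 CPM to 1.65, 1.67 and 2.23 CPM, by 3.12 ± 0.26 (adjusted p = 3.05e-12). In Col-0 NRT2.1 was low on both media, at 1.02, 2.12 and 1.59 CPM on CIM and 0.707, 1.34 and 1.49 CPM on SIM, and the difference was -2.79 ± 0.45 (adjusted p = 0.000102). On CIM every mutant library was above every wild-type library, and on SIM the mutant libraries remained just above the Col-0 SIM libraries. NRT1.1, the dual-affinity transporter and nitrate sensor, fell in both genotypes and less in hy5-2, by 0.61 ± 0.15 (adjusted p = 0.0108), and NIA2 rose more in hy5-2 by 0.32 ± 0.08 (adjusted p = 0.00959).

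Across all genes the mutant and the wild type changed alike for the most part. The log2 changes of the 20842 genes had a Pearson correlation of 0.867 between hy5-2 and Col-0, a description across genes, which are not independent replicates; the genotypes share no library. Of the 11060 genes called in hy5-2, 7868 were called in the same direction in Col-0, which is 71.1% of the mutant's calls and 77.1% of those of Col-0, and 129 were called in opposite directions. The difference of the change passed for 892 genes with a more positive change in the mutant (4.28%) and for 641 with a more negative one (3.08%). With a difference of at least 2-fold these were 395 (1.9%) and 135 (0.648%). With the replicate number as a block on the 12 libraries of the contrast the counts were 1902 and 1841.

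**Figure D5:**
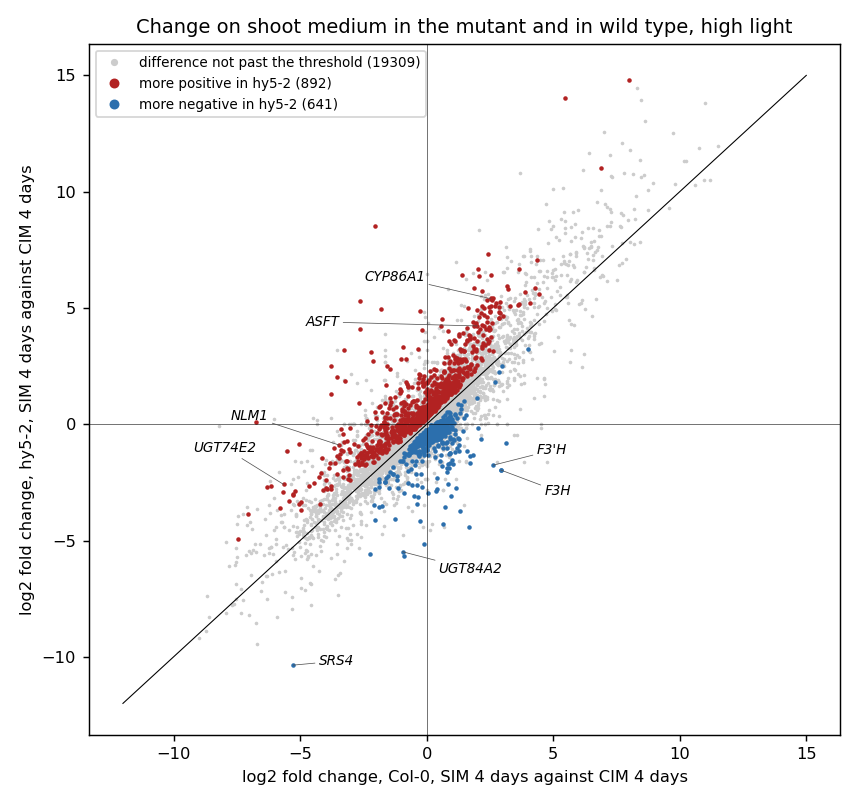
Log2 fold change from CIM 4 days to SIM 4 days in hy5-2 (vertical) against that in Col-0 (horizontal) for 20842 genes, each point a gene and the diagonal marking equal change. Genes with a more positive change in hy5-2 (892, red) lie above the diagonal and those with a more negative change (641, blue) below it, with 8 named genes marked.

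Further suberin genes stood beside CYP86A1 among the 10 largest positive differences, ranked over called genes with a symbol that averaged at least 5 CPM over the 6 hy5-2 libraries. CYP86B1, which hydroxylates very long fatty acids for suberin, went from 0.658, 0.424 and 0.445 CPM to 17.3, 17.5 and 16.3 CPM in hy5-2 and from 2.12, 2.05 and 0.868 CPM to 11.6, 10 and 7.27 CPM in Col-0 (difference 2.58 ± 0.53, adjusted p = 0.00221). ABCG6, a transporter of suberin building blocks, rose by 5.34 ± 0.46 from 0.146, 0.495 and 0.127 CPM to 8.78, 12.9 and 10.5 CPM (adjusted p = 4.85e-11). Its difference of 2.94 (adjusted p = 0.0125) was lost without Col-0 CIM replicate 2 or hy5-2 CIM replicate 3 (adjusted p = 0.0699 and 0.0541). TLL1, a lipase-like gene, went from 2.63, 1.84 and 2.29 CPM to 73.1, 74 and 68.9 CPM in the mutant and from 17.2, 6.89 and 6.37 CPM to 34.4, 34.2 and 26.4 CPM in Col-0 (difference 3.35 ± 0.48, adjusted p = 9.82e-05). These genes shared the pattern of CYP86A1, lower than wild type in every CIM library and higher in every SIM library.

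A second kind of positive difference came from genes that fell less in the mutant. NLM1, an aquaporin-like channel gene, fell in hy5-2 from 55.2, 60.8 and 56.2 CPM to 26.7, 26.9 and 39.6 CPM and in Col-0 from 77.6, 80.1 and 81.8 CPM to 7.78, 6.99 and 7.18 CPM (difference 2.57 ± 0.24, adjusted p = 3.12e-07). UGT74E2, which glucosylates the auxin precursor indole-3-butyric acid, fell by 2.59 in hy5-2 and by 5.65 in Col-0 (difference 3.07 ± 0.47, adjusted p = 0.000123). CYP71A16, of the marneral pathway, did not pass in hy5-2, at 7.6, 6.22 and 8.45 CPM and 5.72, 5.59 and 8.91 CPM, and fell in Col-0 from 12.1, 8.55 and 9.77 CPM to 1.65, 1.2 and 1.04 CPM (difference 2.89 ± 0.45, adjusted p = 0.000109). ELP fell in both, and its difference of 2.51 (adjusted p = 0.0251) was lost in 7 alternative fits, with an adjusted p of up to 0.233 in the fit on the 12 libraries of the contrast with the replicate block. EDA4 and KCS16 completed these 10, with differences of 2.66 and 2.50 (adjusted p = 0.0042 and 0.00373).

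On the negative side, UGT84A2 (AT3G21560, chromosome 3, 7595806 to 7597577), the enzyme that glucosylates sinapate for ultraviolet-screening esters, held the smallest adjusted p. It went from 22.8, 24.2 and 20 CPM to 0.314, 0.491 and 0.709 CPM in hy5-2 and from 63.4, 60.9 and 62.7 CPM to 35.8, 29.6 and 31.9 CPM in Col-0. The fall was 5.48 in the mutant and 0.95 in Col-0, a difference of -4.53 ± 0.24 (adjusted p = 1.03e-14). DGR2, which encodes a cell wall protein of the DUF642 family, fell from 302, 318 and 320.2 CPM to 27.3, 23.9 and 31.4 CPM in hy5-2, and in Col-0 it stood at 376, 345 and 360.2 CPM on CIM and 110.0, 108 and 101 CPM on SIM (difference -1.75 ± 0.18, adjusted p = 2.84e-07). LPR1, a multicopper oxidase gene of the phosphate response, had a difference of -1.58 ± 0.22 (adjusted p = 1.25e-05), and SQE3, a squalene epoxidase gene, of -1.28 ± 0.18 (adjusted p = 1.62e-05). The groups did not overlap between media in either genotype for these 4 genes. PHYLLO, needed for phylloquinone in photosystem I, rose in Col-0 from 16.7, 11.9 and 14.7 CPM to 29.2, 27.8 and 26.2 CPM and fell in hy5-2 from 8.77, 6.57 and 6.93 CPM to 5.88, 4.51 and 4.76 CPM (difference -1.48 ± 0.22, adjusted p = 5.24e-05). NAC048 and SCPL7, a carboxypeptidase-like gene, had differences of -1.27 and -1.21 (adjusted p = 0.00111 and 0.00235). With SRS4, NRT2.1 and RBCS1A they completed the 10 largest negative differences under the same limits of symbol and mean level. The fall of PHYLLO within the mutant was lost without CIM replicate 1 or SIM replicate 2 (adjusted p = 0.0884 and 0.0623).

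The later course of the same genes shares the SIM 4 day libraries, so the values are set side by side without a measure of likeness. Between 4 and 8 days on SIM, 1816 genes rose (8.71%) and 2314 fell (11.1%) in hy5-2. WUS went on to 2.93, 2.62 and 4.71 CPM and CUC1 to 5.42, 6.66 and 5.69 CPM at 8 days, and both rose from 4 days (adjusted p = 0.0171 and 0.000923). The type-A regulators ARR5, ARR7 and ARR15, which did not pass between 4 and 8 days, stood at 160.4 to 179.9, 111 to 125 and 57.3 to 60.7 CPM. In this interval 16 of 18 xylem, 11 of 13 endodermis and suberin and 11 of 14 root hair genes fell and none of these lists had a rise, whereas of 15 phloem and cambium genes 8 rose and 1 fell. CYP86A1 stood at 18.8, 23.3 and 17.1 CPM and RSL4 at 4.36, 6.44 and 6.57 CPM. Photosystem genes took the other course, with 24 rises and no fall: RBCS1A reached 24.6, 16.9 and 11.1 CPM and PSAF 32.4, 30 and 23.5 CPM. Every one of these PSAF libraries was below the 3 Col-0 libraries on CIM.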

How the data were processed

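Per the labels' protocols, whole explants were ground and libraries were made with a kit that keeps strand. What the authors deposited is a table of raw counts per gene for 33400 loci, with no normalization. STAR, SAMtools, bedtools, edgeR and TAIR10 are named in the submitters' processing notes; the strand setting of the counting and the treatment of reads that map to several places were not given in the sources used here. Antisense and overlapping genes are therefore uncertain, and so are near-identical copies.

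The 33 libraries (11 groups of 3) were fitted together in edgeR 4.0.16 (R 4.3.3, limma 3.58.1) with TMM scaling, genes kept by a minimum count of 10 and a minimum total of 15, 1 coefficient for each group and the robust quasi-likelihood F test with 22 residual degrees of freedom. Contrasts were the change in hy5-2, the same change in Col-0, their difference, and 8 against 4 days on SIM. P-values were adjusted by Benjamini-Hochberg over 20842 genes with a threshold of 0.05; this is the adjusted p given throughout, and the test is two-sided. CPM values are counts over TMM-adjusted library totals. Each SE is the absolute log2 fold change divided by the square root of its F statistic, so it was derived from the test. A group without counts was set at a floor of 3 counts over its 3 libraries, and a group with 1 to 3 counts has an exact counting interval at 95%; both cover counting error only. The fits were tried on simulated counts with 200 changed genes, far fewer than were called in the data. Of these, 76.5% were recovered for the hy5-2 change and 57% for the difference between genotypes. For the difference, recovery was 29.9% at 1.5-fold and 64.2% at 2-fold. False calls made up 5.6% and 4.2% of the calls. A difference that did not pass is therefore not shown to be absent.

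Named genes were 17 markers, the 10 largest rises and falls of the hy5-2 change and of the difference among called genes with a symbol averaging at least 5 CPM over the 6 hy5-2 libraries, and per list up to 3 members in each direction with the smallest adjusted p; 57 further genes were named after their values were seen, and 1 gene that the rule named is not reported here. Members and lists were chosen with earlier results of these data known. The submitters describe biological replicates without naming separate plants or plates, so p-values measure the spread between these samples. Alternatives tried were DESeq2 1.42.0, RLE size factors, no filter on low counts, a fit on the libraries of the contrast alone, the replicate number as a block, and leaving out each library.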

Additional observations from a re-analysis of the deposited data

Results flagged for a closer look

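For 65 named genes the change from CIM to SIM differed between hy5-2 and Col-0 by the test of the difference itself (edgeR, adjusted p under 0.05 over all genes, 3 libraries in each of 4 groups). The values below are the log2 change in hy5-2 minus that in Col-0, and they include genes that were named because of this difference.

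Cell wall, lipid and suberin genes had positive differences. These were TLL1 at 3.35, ABCG6 at 2.94, PER64 at 2.91, CYP86A1 at 2.87, CYP86B1 at 2.58, KCS16 at 2.50, XTH14 at 2.45, GSO1 at 2.32, GPAT5 at 2.32, ASFT at 2.23, FAR4 at 2.14, CER6 at 0.93 and ESB1 at 0.83. Hormone genes followed, with IPT3 at 7.92, IPT5 at 4.2, UGT74E2 at 3.07, YUC8 at 2.62, CKX4 at 2.50, GH3.2 at 0.70, CKX5 at 0.70, CKX1 at 0.49 and ARR6 at 0.30. The other positive differences were those of CYP71A16 at 2.89, CYP705A5 at 1.79, THAS1 at 1.56, CYP708A2 at 1.48, EDA4 at 2.66, NLM1 at 2.57, ELP at 2.51, PP2-A1 at 0.66, SIAMESE (SIM) at 0.63, NRT1.1 at 0.61, XCP1 at 0.55, BBX24 at 0.49 and NIA2 at 0.32.

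Flavonoid and sinapate genes had negative differences, with F3H at -4.90, UGT84A2 at -4.53, F3'H at -4.39, MYB12 at -4.07, CHI at -1.73 and UGT78D2 at -0.67. Plastid and light genes were GUN4 at -2.71, RBCS1A at -2.32, ELIP1 at -2.14, GAPB at -1.74, PHYLLO at -1.48, SIG6 at -1.14, PSAF and PSAE2 both at -1.07, CHLH at -1.10 and CHLD at -0.56. Division genes were MCM6 at -0.48, MYB3R4 at -0.45, AUR1 at -0.32 and MCM2 at -0.31, and developmental and auxin transport genes were CUC2 at -0.82, PIN4 at -0.47 and PLT3 at -0.34. The remaining values were SRS4 at -5.09, NRT2.1 at -2.79, DGR2 at -1.75, LPR1 at -1.58, SQE3 at -1.28, NAC048 at -1.27 and SCPL7 at -1.21. SRS4 had no count on SIM in hy5-2 and IPT3 none on CIM, so these values depend on the prior count of the fit and are no bounds. Of the 65 calls 22 were lost under at least 1 alternative and 43 under none that tested the gene.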

How the results depend on the processing

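The change in hy5-2 gave 4836 to 5154 rises and 5158 to 5401 falls when 1 of the 6 libraries was left out, and the difference between genotypes gave 673 to 817 positive and 451 to 622 negative calls when 1 of 12 was left out. With the replicate number as a block on the 12 libraries of the contrast alone, the difference had 1902 positive and 1841 negative calls, against 892 and 641; the cause was not tested. The block over all 33 libraries gave 5639 rises and 6117 falls in hy5-2, and 1196 positive and 950 negative differences. Same-numbered hy5-2 libraries deviated together with correlations of 0.249, 0.154 and 0.093, and those of Col-0 with 0.253, 0.22 and 0.087. The values were not all above 0.1 in either genotype, so the numbers were not taken to pair the samples. In both genotypes each library correlated best with its own number, which is a hint from the data and not from the design. Of 195 named genes called in hy5-2, 13 lost the call under at least 1 alternative, and of 65 called differences 22 did, with 0 reversals in either. An alternative that did not test a gene was not counted as a loss. The fit on the 6 hy5-2 libraries alone gave a value for 201 of the 214 named genes. Over the alternatives the photosystem list had 0 to 11 falls and 1 to 5 rises, and the flavonoid list had 3 to 6 falls. Depth limits the genes with few counts, among them CLV3, F3H, MYB12 and LHCB1.1, and the median of all genes in hy5-2 was -0.017, and -0.026 with RLE size factors.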

Other observations

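Genes of the thalianol cluster, which lie next to each other on chromosome 5 and make a root triterpene, were chosen here after their values were seen. THAS1, the thalianol synthase gene, did not pass in hy5-2 (0.00 ± 0.08, adjusted p = 0.98) and fell in Col-0 by 1.56 ± 0.08 (adjusted p = 6.26e-17), a difference of 1.56 ± 0.11 (edgeR, adjusted p = 7.58e-11). CYP708A2, thalianol hydroxylase, rose in hy5-2 by 1.00 ± 0.08 (adjusted p = 5.07e-12) and fell in Col-0 by 0.49 ± 0.08 (adjusted p = 8.8e-06), a difference of 1.48 ± 0.12 (adjusted p = 3.94e-10). CYP705A5, a later enzyme of the cluster, rose in both, by 5.69 ± 0.14 in hy5-2 and by 3.89 ± 0.13 in Col-0 (difference 1.79 ± 0.19, adjusted p = 2.98e-07). THAS1 and CYP708A2 held the smallest adjusted p of the difference after UGT84A2. In the separate marneral cluster, CYP71A16 is described above, and CYP705A12 fell by 1.53 ± 0.38 in hy5-2 and by 3.53 ± 0.48 in Col-0, with a difference that did not pass (2.00 ± 0.67, adjusted p = 0.0659).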
